A study of Mus musculus with 4 samples.

Results

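The allelic balance of autosomal genes was examined in Zfp57-/- cells, as the difference between the JF1 and the B6 allele within each library. Members were the genes of chromosomes 1 to 19 with at least 10 allele-assigned read counts in both Zfp57-/- libraries, a rule that uses depth and not the direction of any difference. This left 11005 of the 54750 genes of the allele table, of which 10350 were protein coding. Of these, 76 belonged to lists of imprinted genes, 510 lay on chromosome 1 below 150.2 Mb and 28 lay in stretches where a single allele was read, and these classes are described apart. The other 10393 members carry the account of strain bias.

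The cells descended from JB1, a male hybrid mouse embryonic stem cell line with a JF1 mother and a C57BL/6 (B6) father. Wild-type cells and a Zfp57-/- line derived from JB1 as 1 clone were put through in vitro corticogenesis in a defined default medium, with 1 µM cyclopamine, a blocker of Hedgehog signalling, from day 2 to day 10, and RNA was taken at day 12. Each genotype had 2 libraries of ribosome-depleted total RNA. The JF1 allele was always the maternal one, so that strain and parental origin cannot be told apart for any single gene, and what is particular to the clone cannot be told apart from the loss of Zfp57.

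In an F1 hybrid both parental alleles share the same nucleus and the same trans-acting factors. A difference between their transcripts therefore points to a difference carried on the chromosome itself, either in the DNA sequence, as in cis-regulatory variation between strains, or in an epigenetic mark, as at imprinted genes. ZFP57 is a KRAB zinc finger protein that binds methylated imprinting control regions and keeps their DNA methylation on 1 parental allele. Reads are assigned to an allele by the single-nucleotide variants they cover, and genes with near-identical copies elsewhere in the genome can receive reads that belong to a copy.

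The Zfp57-/- libraries held 3470671 and 3826604 allele-assigned counts and the wild-type libraries 2837013 and 3695630, which was between 36.1% and 37.0% of the counts of each library. The median member had 128 and 138 allelic counts in the Zfp57-/- libraries. With 50 counts a balanced gene has a 95% Wilson interval of 0.366 to 0.634 on the JF1 ratio, JF1/(JF1 + B6), and with 1000 counts of 0.469 to 0.531 (counting error only). On the X chromosome, where male cells hold JF1 alone, 0.281% and 0.305% of the Zfp57-/- counts were assigned to B6. Of the targeted gene, Zfp57 (chr17:37001163-37010635, GRCm38), the JF1 allele had 0 counts in both Zfp57-/- libraries and the B6 allele 82 and 76, against 136 and 99 JF1 counts with 81 and 49 B6 counts in the wild-type libraries. The 0 of 158 counts allows a JF1 share of up to 1.90%, and the B6 transcript still present had a bulk count of 158 and 144. The pluripotency factors Pou5f1 and Nanog had bulk counts of 2747 and 2286, and of 903 and 938, in Zfp57-/- cells, against 1 and 6, and 0 and 0, in wild-type cells, while Sox1, a neural progenitor marker, had 68 and 32 against 297 and 468. As counts scaled to library size (CPM), 20 endoderm markers summed to 19249 and 27037 in Zfp57-/- cells, above the 4645 and 4442 of 38 pluripotency genes, so that the cells held more than a pluripotent transcriptome. In wild-type cells the endoderm markers summed to 11510 and 17906 CPM and the pluripotency genes to 887 and 1000 CPM, with 11 and 6 of the 38 at 0. The 20 neural genes summed to 481 and 419 CPM in Zfp57-/- cells against 3041 and 3431 CPM in wild-type cells. The genotypes thus differed in cell state, and the part of this difference in any change of allelic ratio described here was not tested. In wild-type cells 16 chromosome stretches, all JF1, met the rule for being read from a single allele, a running median of 0.9 or more. The lowest median of a stretch was 0.912, on chromosome 17. The stretches held 254 of the members outside the classes treated apart.

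Most members were close to balance in Zfp57-/- cells, with a small lean towards B6. The median JF1 ratio was 0.485 in both libraries, against 0.5 in both wild-type libraries over the 9565 members that also had 10 counts in each of these. The wild-type median includes 254 members in stretches read wholly or mostly from JF1, and a median without them is not given. Wild-type medians were 0.479 and 0.487 on chromosome 6, beside 0.484 and 0.483 in Zfp57-/- cells. On chromosome 7 they were 0.520 and 0.519, beside 0.483 and 0.484. In Zfp57-/- cells every autosome lay between 0.474 and 0.494 by its median, with the chromosome 1 region left out. Of the 10393 members, 5252 (50.5%) had a mean ratio between 0.45 and 0.55, while 93 lay at 0.9 or above and 73 at 0.1 or below. The ratio of a member with at least 50 counts in each library differed between the Zfp57-/- libraries by 0.0397 at the median (7466 genes).

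An allelic difference past an adjusted p of 0.05 was found for 2170 members, 20.9% of those tested, with B6 higher for 1433 (13.8%) and JF1 higher for 737 (7.09%). In 2164 of the 2170, both libraries lay on the same side of 0.5, which is no separate support, since the calls were made from these libraries. Centring each library on its own median, which sets the balance of all genes, left 1039 with B6 higher and 986 with JF1 higher. The median absolute log2 difference was 0.74 among the genes past the threshold and 0.21 among the others. A DESeq2 Wald test called 581, with B6 higher for 382. Past 0.33 or 0.67, bounds that amount to about a doubling of one allele over the other, lay 758 of the genes past the threshold (7.29%), 459 towards B6 and 299 towards JF1, and in 588 of these each of the libraries passed the bound. After the same centring these were 427 and 313. DESeq2 placed 329 past a bound.

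**Figure D1:**
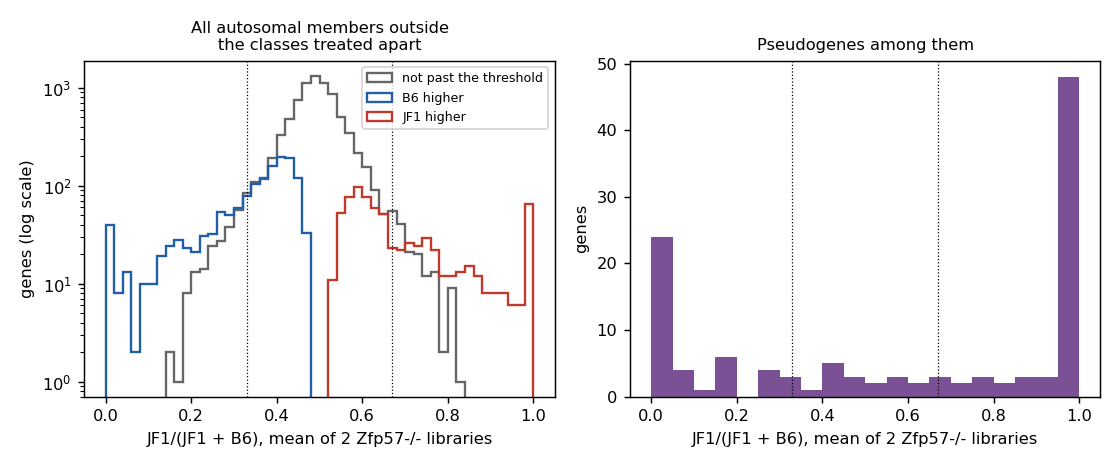
JF1 ratio, JF1/(JF1 + B6), of members in Zfp57-/- cells as the mean of 2 libraries (x axis) against the number of genes on a log axis. On the left, the 10393 members outside the classes treated apart are drawn by call: those with an allelic difference, 1433 towards B6 and 737 towards JF1, flank the balanced peak near 0.485. On the right, the pseudogenes among them pile up at both ends of the scale.

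The share of members past the threshold differed with depth and with type of gene. The share called grew from 13.3% of the 1206 members with 10 to 19 counts in the shallower library to 45.2% of the 456 with 1000 or more, while the share called and past 0.33 or 0.67 was 13.3% in the first of these, 2.81% at 200 to 999 counts and 5.48% in the deepest. At 10 to 19 counts all 160 calls were past a bound, so that no milder difference was called at that depth. Protein-coding genes were called for 1999 of 9814 (20.4%), with 603 (6.14%) past the bounds. Pseudogenes stood apart, with 95 of 122 called (77.9%), 60 towards JF1 and 35 towards B6, and 79 with a ratio beyond 0.9 or 0.1. Histone genes, a class picked after its values were seen, were called for 32 of 51 (62.7%) and ribosomal protein genes for 32 of 74 (43.2%; 15 towards JF1, 17 towards B6). Genes of these classes can have near-identical copies elsewhere in the genome, among which reads can be split. The part of copies in their ratios was not tested. Without them 2013 of 10149 members (19.8%) were called and 634 passed the bounds.

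A bias with 50 counts in each library and all 4 ratios past a bound was held by 37 genes on the JF1 side and 44 on the B6 side, of which 11 and 13 were pseudogenes, ribosomal protein or histone genes. Such genes took most of the places with the smallest adjusted p. The JF1 side was led by Rpl27, Hist1h4c, Fau, Tpm3-rs7, Hist2h3b, Ppia, Rpl13 and Rps13, and the B6 side by Hist1h3f, Rpl14, Rpl35a, Rpl37rt, Rplp0, Rps26, Hist1h2bm and Stmn1. Rpl27, a protein of the large ribosomal subunit, had 1729 JF1 and 184 B6 counts in the first Zfp57-/- library and 1725 and 193 in the second (ratios 0.904 and 0.899, log2 difference 3.19 ± 0.09 (SE), adjusted p = 1.74e-53). Its wild-type ratios were 0.873 and 0.895, beside those of the Zfp57-/- libraries. Stmn1, which encodes the microtubule-destabilising protein stathmin (chr4:134468320-134473843), had 0 and 2 JF1 counts against 194 and 232 B6 counts, and wild-type ratios of 0.012 and 0.009. Rpl37rt had 0 JF1 counts against 349 and 366 B6 counts, at least 238-fold more B6 over both libraries, and was at 0 in wild-type cells too. Of 685 predicted genes and clone names 190 were called (27.7%), and 100 had a ratio beyond 0.9 or 0.1. Gm26917 had 11905 JF1 and 2 B6 counts in the first library and 12773 and 1 in the second, and Gm8203 had 0 JF1 counts against 720 and 773 B6 counts. The bulk counts of Gm8203 were only 12 and 13, so that its allelic and bulk counts do not measure the same reads. In all, 64 members, 34 of them pseudogenes, had more allelic than bulk counts in both Zfp57-/- libraries, and 43 of the 2170 calls were among them, as for Rps26. Their part in the ratios was not tested.

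Outside these classes 26 genes on the JF1 side and 31 on the B6 side met the same criteria, and the following of them were chosen after their values were seen. Lbp, the lipopolysaccharide-binding protein (chr2:158306493-158332852), had 215 and 279 JF1 counts against 15 and 12 B6 counts in the Zfp57-/- libraries (log2 difference 4.18 ± 0.22, adjusted p = 1.52e-30). Its ratios were 0.935 and 0.959 there and 0.956 and 0.977 in wild-type cells. Fst, which encodes the activin antagonist follistatin (chr13:114452290-114458951), was milder, with ratios of 0.738 and 0.756 against 0.723 and 0.740 (1.57 ± 0.09, adjusted p = 6.07e-28). Pgam1, a glycolytic enzyme, had ratios of 0.877 and 0.871, and Cdk2ap1 of 0.916 and 0.950. On the B6 side Rnf7, a RING subunit of cullin ubiquitin ligases (chr9:96470937-96478675), had 62 and 81 JF1 counts against 240 and 303 B6 counts (-1.92 ± 0.15, adjusted p = 6.62e-20). All 4 libraries were near one another, at 0.205 and 0.211 in Zfp57-/- cells and 0.199 and 0.217 in wild-type cells. Thbd, the endothelial receptor thrombomodulin, had 10 and 9 JF1 counts against 89 and 92 B6 counts, and Tnfrsf21 had ratios of 0.174 and 0.208.

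**Figure D2:**
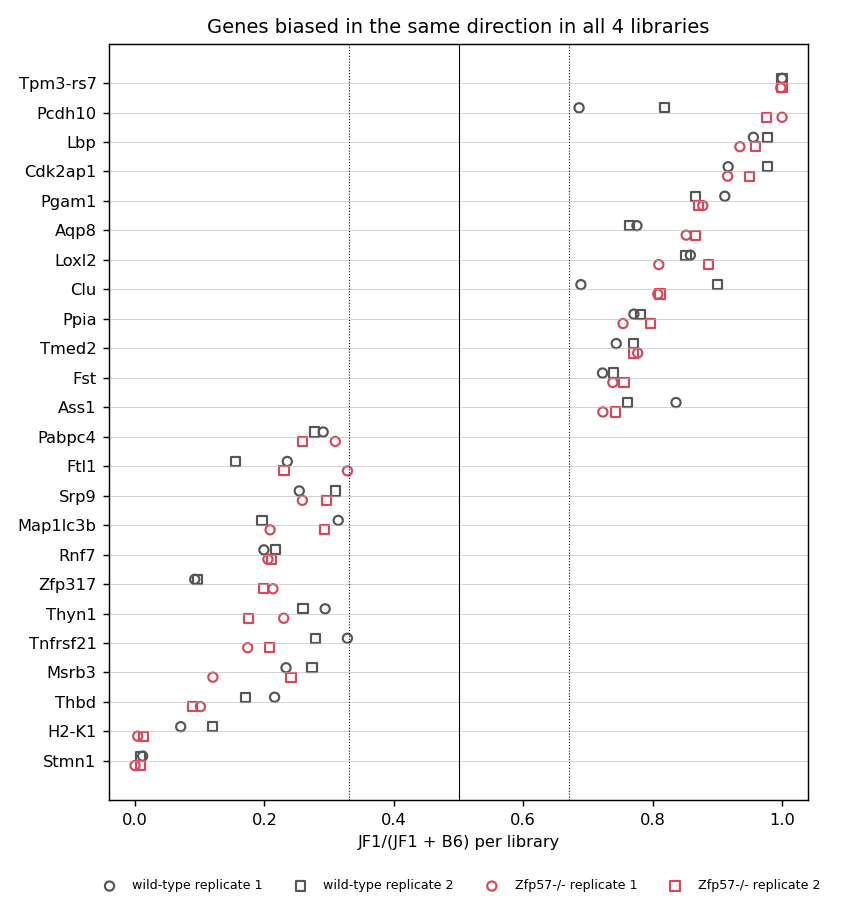
JF1 ratio (x axis) of 24 genes outside pseudogenes, ribosomal protein and histone genes with a ratio past 0.67 (12 genes) or 0.33 (12 genes) in all 4 libraries, 1 point per library. For most genes the wild-type and Zfp57-/- points lie close together, as for Rnf7 between 0.199 and 0.217, while H2-K1 and Pcdh10 are spread more widely.

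Of the 2006 genes called in Zfp57-/- cells with counts to test in wild-type cells, 865 were also called there in the same direction, 9.04% of the 9565 members tested in both. They made up 43.1% of the calls in Zfp57-/- cells and 37.0% of the 2339 calls (24.5%) in wild-type cells, with 545 towards B6 and 320 towards JF1. The genotypes shared no library. Outside the wild-type stretches read from a single allele and neighbourhoods with a median wild-type ratio outside 0.45 to 0.55, the count was 762. It fell from 865 to 514 without wild-type replicate 1 and to 409 without wild-type replicate 2, and DESeq2 gave 271. A further 127 were called in opposite directions and 1014 were not called in wild-type cells, but for 807 of these the difference between genotypes did not pass its own test. Of the 602 genes past a bound and tested in both genotypes, 286 passed the same bound in wild-type cells and 22 were called the other way.

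The allelic difference itself changed between genotypes for 1219 of the 9565 members (12.7%). The JF1 share was lower in Zfp57-/- cells for 1065 of these and higher for 154. Where the surrounding genes stood in wild-type cells moved with this count: among the 1289 members in a wild-type stretch read from a single allele, or whose 15 nearest genes had a median wild-type ratio outside 0.45 to 0.55, 516 changed (40.0%), 503 of them with a lower JF1 share in Zfp57-/- cells. Among the other 8276, 703 changed (8.49%), 562 lower and 141 higher. DESeq2 called a change for 678.

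**Figure D3:**
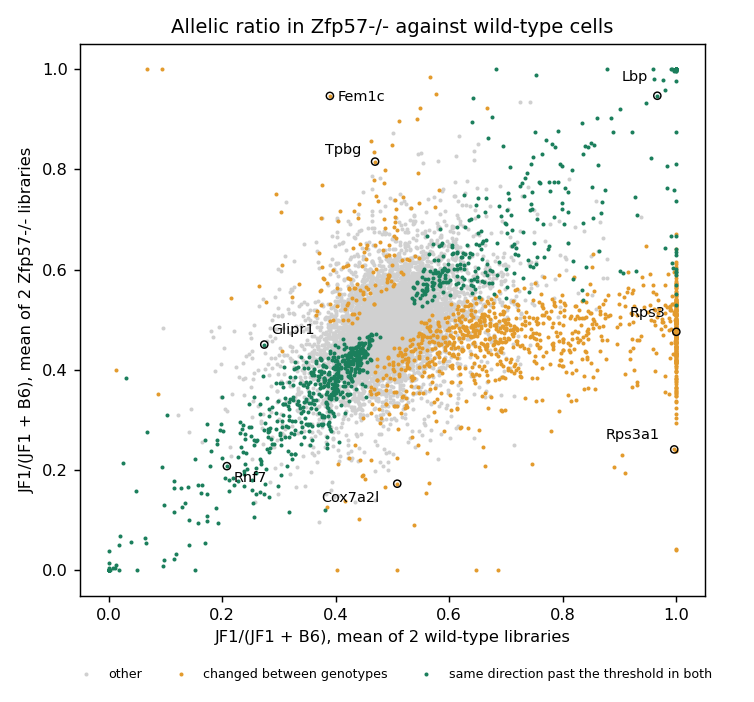
Mean JF1 ratio in wild-type cells (x axis) against Zfp57-/- cells (y axis) for the members tested in both, 1 point per gene. Genes called in the same direction in both (green, 865) lie along the diagonal and the other genes whose difference changed (orange; 91 of the 1219 are among the green) lie mostly to its right, where wild-type cells had the higher JF1 ratio. Tpbg and Cox7a2l leave the diagonal near a balanced wild-type ratio, and Fem1c from a wild-type lean to B6.

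By the smallest adjusted p of the change, the genes with a higher JF1 share in Zfp57-/- cells were Tpbg, Hmga1b, Spock2, Fem1c and Glipr1. Tpbg, the oncofetal surface glycoprotein 5T4 and an inhibitor of Wnt signalling (chr9:85842380-85847040), had 389 and 435 JF1 counts against 94 and 92 B6 counts in Zfp57-/- cells. In wild-type cells the same gene was near balance, with 369 and 376 JF1 counts against 436 and 407 B6 counts, and the change was 2.32 ± 0.16 on the log2 scale (adjusted p = 2.94e-23). Fem1c, a substrate receptor of a cullin-2 ubiquitin ligase (chr18:46501746-46525971), had 55 and 50 JF1 counts against 0 and 6 B6 counts, from wild-type ratios of 0.393 and 0.386 (adjusted p = 1.02e-13). Spock2, a secreted proteoglycan of the extracellular matrix (chr10:60106219-60135198), stood at 0.895 and 0.895 against 0.591 and 0.688. In Hmga1b, which has a close copy in Hmga1, no B6 count was left in either Zfp57-/- library, with 221 JF1 counts in each. Glipr1 moved from B6 towards balance, from 0.299 and 0.249 to 0.464 and 0.437.

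The genes with a lower JF1 share were led by Rps3, Serpinh1, Rps3a1, Tubb5 and Rps15a, all read from JF1 alone or nearly so in wild-type cells, with ratios of 0.995 or above. Rps3, Serpinh1 and Rps15a lie in wild-type stretches read from a single allele. In Zfp57-/- cells Serpinh1, a collagen chaperone, had ratios of 0.440 and 0.428 and Rps15a of 0.509 and 0.524, the latter not past the threshold (adjusted p = 0.269), whereas Rps3a1 crossed over to B6 at 0.245 and 0.238. Within balanced wild-type neighbourhoods the same direction was seen for genes chosen after their values were known: Map3k4, a kinase of the p38 and JNK pathways, had ratios of 1 and 1 in wild-type cells and 0.476 and 0.468 in Zfp57-/- cells, and Canx, the chaperone calnexin of the endoplasmic reticulum (chr11:50293961-50325673), fell from 0.853 and 0.837 to 0.472 and 0.476. Wtap, of the RNA methyltransferase complex, went from 0.983 and 0.992 to 0.319 and 0.384.

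Cox7a2l, a factor in the assembly of respiratory supercomplexes known for a shortened form in C57BL/6 mice (chr17:83501918-83517330), also had a lower JF1 share, but from a balanced start. It had 109 and 119 JF1 counts against 580 and 514 B6 counts in Zfp57-/- cells, a log2 difference of -2.26 ± 0.12 (adjusted p = 1.45e-30). In wild-type cells it was balanced, with 179 and 237 JF1 counts against 160 and 248 B6 counts, and the change of -2.29 ± 0.18 passed its test (adjusted p = 8.00e-21). It was the only member of the list of known strain differences to reach the depth minimum. Among the 58 respiratory chain genes 15 were called (25.9%, beside 20.9% of all members), 10 towards B6 and 5 towards JF1. Cox6c, of cytochrome c oxidase, had ratios of 0.380 and 0.380 in Zfp57-/- cells and 0.377 and 0.381 in wild-type cells, and Uqcrc2, of complex III, had 0.387 and 0.388 against 0.420 and 0.423. Ndufb4, of complex I, was on the JF1 side, at 0.799 and 0.799 against 0.852 and 0.779, with more allelic than bulk counts in both Zfp57-/- libraries.

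A bias could also be seen in genes that wild-type cells did not express enough to test. Of the 828 members under 10 counts in a wild-type library 164 were called. Among these, the genes past a bound with 50 counts in both Zfp57-/- libraries and under 10 in each wild-type library numbered 11 towards B6 and 3 towards JF1. Dppa5a, an RNA-binding protein of pluripotent cells (chr9:78367052-78368177), had 308 and 310 JF1 counts against 879 and 664 B6 counts (-1.31 ± 0.10, adjusted p = 4.45e-20). Platr10, a pluripotency-associated noncoding transcript, had 0 JF1 counts against 73 and 59 B6 counts, at least 44.0-fold more B6 over both libraries. Aoah, an enzyme that inactivates lipopolysaccharide, had 1 and 4 JF1 counts against 57 and 59. B3gnt3, a glycosyltransferase, had 9 and 3 against 42 and 64, and Samd3 had 5 and 21 against 69 and 64. On the JF1 side stood Dnah8, an axonemal dynein heavy chain (chr17:30624354-30875264), with 236 and 200 JF1 counts against 11 and 20 B6 counts (3.80 ± 0.26, adjusted p = 5.88e-24). Fgfbp1, a carrier of fibroblast growth factors, had 106 and 139 against 15 and 28, and the ATP-gated channel P2rx7 had 77 and 62 against 36 and 26.

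Of 26 pluripotency genes among the members, 18 of which were under the wild-type minimum, 7 were called (26.9%), 6 towards B6 and 1 towards JF1. Beside Dppa5a, the Nodal co-receptor Tdgf1 (258 and 305 JF1 counts, 462 and 403 B6 counts), the Nodal antagonist Lefty1 (50 and 35, 127 and 82) and Tcl1 (29 and 24, 83 and 67) leaned towards B6. So did Nanog, with ratios of 0.407 and 0.373 (-0.64 ± 0.13). Dppa4 was the gene on the JF1 side, with 221 and 214 JF1 counts against 143 and 128 B6 counts. The share called was near the 20.9% of all members. Among the 29 genes for DNA methylation and heterochromatin 10 were called (34.5%), 6 towards B6 and 4 towards JF1, Zfp57 included. Tet2 had ratios of 0.626 and 0.644 in Zfp57-/- cells against 0.425 and 0.476 in wild-type cells, a change of 1.10 on the log2 scale (adjusted p = 3.74e-09). Tet1, the other of these methylcytosine oxidases called, leaned towards B6 at 0.405 and 0.442, as did Uhrf1, the recruiter of the maintenance methyltransferase, at 0.437 and 0.409, where wild-type cells had 0.374 and 0.374. The KRAB-type and other Zfp genes, the family of Zfp57, were called for 40 of 258 (15.5%), 31 towards B6 and 9 towards JF1, with Zfp317 at 0.213 and 0.199 and Zfp979 at 0.876 and 0.872.

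Genes of the major histocompatibility complex and the interferon response were called for 8 of 30 (26.7%), all towards B6, beside 20.9% of all members called and 13.8% called towards B6. The H2 genes, set apart after their values were seen, gave 4 of these 8 calls from only 5 members, so that the lean does not describe the list as a whole. H2-K1, a classical class I gene (chr17:33996017-34000333), had 1 and 3 JF1 counts against 242 and 224 B6 counts, with wild-type ratios of 0.071 and 0.120. It lies in a wild-type stretch that met the single-allele rule for JF1 with a median of only 0.912, and H2-K1 itself went the other way there. Its neighbours Vps52 and Ring1 leaned to JF1 in wild-type cells (0.847 and 0.840, and 0.956 and 0.863) and were near balance in Zfp57-/- cells. H2-D1, also class I, had 20 and 23 JF1 counts against 70 and 74 B6 counts, where wild-type cells read JF1 at 0.933 and 0.875 (log2 change -4.86, adjusted p = 9.40e-08). The H2 genes are polymorphic and resemble one another, so that reads of either allele may be lost or misplaced. Irf2bp2, a corepressor, was stable between genotypes, at 0.332 and 0.343 against 0.304 and 0.363. Glutathione and detoxification genes were called for 13 of 35 (37.1%, beside the same 20.9%), 9 towards JF1 and 4 towards B6. Gstp2 had 69 and 47 JF1 counts against 0 and 1 B6 counts, and Gstm5 had 0 and 1 JF1 counts against 35 and 33, both in families of close copies, and Gstp2 with more allelic than bulk counts. Gstz1, which acts in tyrosine breakdown, had ratios of 0.723 and 0.735 against 0.589 and 0.706, and Aldh9a1 of 0.287 and 0.215 against 0.257 and 0.320.

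Of the 76 imprinted genes, 17 were called in Zfp57-/- cells (22.4%), beside 20.9% of the members outside the classes treated apart and 23.4% of all members. Zdbf2 and Adam23, among the 17, lie in the chromosome 1 region, where 71.9% of the members outside the imprinted lists were called. Past a bound were 7 of the 17. By list, 12 of 38 were called (31.6%) among genes drawn largely from the paper, and 5 of 38 (13.2%) among others known to be imprinted. Median wild-type ratios were 0.157 and 0.147 in the first list, and 0.508 and 0.497 in the second. In wild-type cells 28 imprinted genes were called with both ratios past a bound, and the difference between genotypes passed its test for all 28. Their median absolute log2 difference was 5.17 in wild-type cells and 0.28 in Zfp57-/- cells, beside 0.28 for the members outside the lists and regions treated apart. Of the 28, 18 were not called in Zfp57-/- cells, 8 were called in the wild-type direction and 2 in the opposite one. Peg10 and Mest, expressed from the paternal allele, show the loss: Peg10 had wild-type ratios of 0.019 and 0.038 and Zfp57-/- ratios of 0.486 and 0.509, and Mest went from 0.009 and 0.019 to 0.447 and 0.517. These genes, like Grb10 at 0.481 and 0.477, were chosen as examples after their values were seen.

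The genes called in the wild-type direction were led by the maternally expressed noncoding RNAs of the Dlk1-Dio3 domain. Rian (chr12:109603940-109661716) had ratios of 0.686 and 0.656 in Zfp57-/- cells (1.03 ± 0.06, adjusted p = 1.35e-23) where wild-type cells had 0.993 and 0.998. Mirg stood at 0.662 and 0.692, and Meg3 at 0.685 and 0.646, the mean of Rian and Mirg lying past 0.67 and that of Meg3 just short of it. From Meg3 to Mirg all 12 members had more JF1 than B6 counts in both libraries, with median ratios of 0.684 and 0.666 against 1 and 1 in wild-type cells. Of these 7 were called, 4 of them outside the lists (Gm26945, Gm37899, Mir376c and Mir453). Gm26945 and Gm23600 lie within Rian, and Mir453 within Mirg. The paper describes Rian and Mirg as transcribed together with Meg3, so that these members are not independent of one another. The growth factor gene Igf2, paternally expressed (chr7:142650766-142666816), kept the B6 side at 0.241 and 0.231, closer to balance than the wild-type 0.142 and 0.148 (change 0.86, adjusted p = 9.76e-03). H19, its maternally expressed neighbour, was called at 0.559 and 0.530 after 0.964 and 0.963, and Plagl1, a paternally expressed zinc finger gene, at 0.348 and 0.354 after 0.039 and 0.016. The antisense transcripts Snhg14 and Kcnq1ot1 were called at 0.383 and 0.451, and at 0.459 and 0.482 (adjusted p = 0.0480).

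A few imprinted genes were called on the other side. Igf2r, the maternally expressed receptor that clears Igf2 (chr17:12682406-12769664), had ratios of 0.326 and 0.311 in Zfp57-/- cells after 0.675 and 0.605 in wild-type cells (-1.10 ± 0.10, adjusted p = 6.53e-17). Impact, paternally expressed (chr18:12955852-12992950), had 0.577 and 0.602 after 0.071 and 0.041. Zdbf2 had 0.639 and 0.605 after 0.270 and 0.266, and like Adam23 it lies in the chromosome 1 region described last. Gab1, at 0.296 and 0.342, and Sfmbt2, at 0.198 and 0.346, leaned to B6 in both genotypes with no change past the threshold. Cobl, Jade1, Adam23 and Osbpl5 were called in Zfp57-/- cells only, and of these the change passed its test for Cobl and Adam23.

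**Figure D4:**
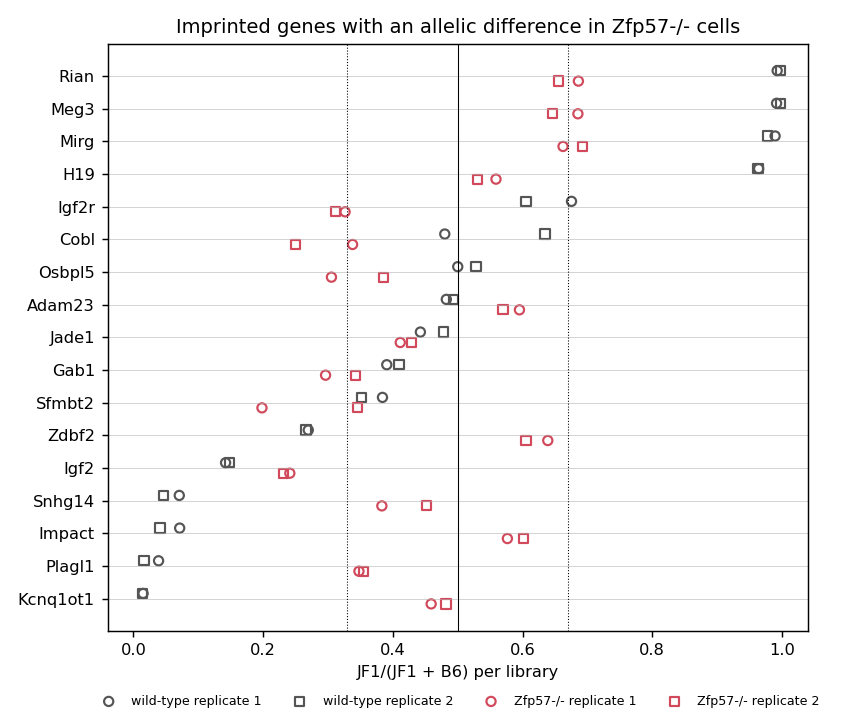
JF1 ratio (x axis) of the 17 imprinted genes with an allelic difference in Zfp57-/- cells, 1 point per library, with wild-type and Zfp57-/- libraries in separate colours. Rian, Mirg and Meg3 moved from near 1 to between 0.646 and 0.692, and Igf2r, Zdbf2 and Impact changed sides. Zdbf2 lies in the chromosome 1 region, where most genes leaned to JF1 in Zfp57-/- cells.

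Gene order showed where a bias ran over many neighbours. On chromosome 1 below 150.2 Mb, without imprinted genes, 365 of 508 members were called (71.9%), 354 towards JF1 and 11 towards B6, and DESeq2 called 228. The median ratios were 0.653 and 0.651 there, against 0.491 and 0.499 in wild-type cells. Above the boundary, 44 of 199 were called, 35 towards B6 and 9 towards JF1, with medians of 0.485 and 0.489. The last members below, Pla2g4a (0.486 and 0.438, with 37 and 16 counts) and Ptgs2 (0.455 and 0.470), were near balance. So were Odr4 (0.462 and 0.489) and Tpr (0.515 and 0.468) above. Uchl5, which ends at 143807466, had 0.680 and 0.635. Between it and Pla2g4a, which starts at 149829618, lay only the pseudogene Gm15583 (0.214 and 0.087). The place and the sharpness of the step within this gap cannot be told. A shared regional ratio and a bias of its own were both present in single genes. Hjurp, the chaperone of the centromeric histone CENP-A (chr1:88262471-88277633), had 767 and 925 JF1 counts against 87 and 87 B6 counts and was already at 0.868 and 0.873 in wild-type cells. Rpl31 had 0.759 and 0.736, after 0.586 and 0.594. The prothymosin gene Ptma kept the B6 side within the region, at 0.337 and 0.405 against 0.314 and 0.247, as did Paqr8, at 0.288 and 0.342 against 0.372 and 0.344. The mitochondrial-like predicted genes Gm29216, Gm28438 and Gm28661 had no B6 count in any library of either genotype, and lie in a stretch read from JF1 alone in wild-type cells too. Gm29216 had 17023 and 18208 allelic counts in Zfp57-/- cells against bulk counts of 947 and 864.

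A pair of stretches was read from a single allele in Zfp57-/- cells alone. On chromosome 2 from 48814109 to 59846149, from the activin receptor gene Acvr2a to Tanc1, all 20 members were JF1, with 1 B6 count beside 7087 JF1 counts, while the same genes had median wild-type ratios of 0.486 and 0.479. The next 3 members were balanced, with median ratios of 0.523 and 0.503. At the start of chromosome 17, up to 6308314, all 12 members were B6, with 11 JF1 counts beside 2037 B6 counts. They include the chromatin remodeller gene Arid1b (0 of 287 counts JF1, which allows up to 1.05%) and Scaf8 (0 against 121 and 117). The lean to B6 did not end there, since all of the next 3 members were called towards B6. Ezr had ratios of 0.456 and 0.466, Tagap1 of 0.083 and 0.171 and Rps6ka2 of 0.384 and 0.368, and for Tagap1 and Rps6ka2 the change between genotypes passed its test.

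By a rule set after the values were seen, 6 runs of 4 or more neighbouring members called on the same side were found outside the classes treated apart, 1 of which is the start of chromosome 17 just described. Every run but the longest had 4 genes. Of all these members 13.8% were called towards B6 and 7.09% towards JF1, and how many runs of 4 such shares alone would give was not tested. The longest covered 12 genes on chromosome 3 from 137621612 to 139075201, from Ddit4l to Rap1gds1, all towards B6, with median ratios of 0.293 and 0.341 in Zfp57-/- cells and 0.426 and 0.456 in wild-type cells. For 4 of the 12 the change between genotypes passed its test. Adh5, the class III alcohol dehydrogenase (chr3:138443093-138455499), had 407 and 469 JF1 counts against 1063 and 1037 B6 counts (-1.26 ± 0.08, adjusted p = 5.63e-25) and wild-type ratios of 0.473 and 0.483. Metap1, a methionine aminopeptidase, had 0.299 and 0.345. A run of 4 genes on chromosome 10, with the pantetheinase gene Vnn1 and the matricellular gene Ccn2, leaned to B6 in both genotypes, Ccn2 at 0.305 and 0.338 against 0.333 and 0.301. Another on the same chromosome, from Trpm2 to Aire, the regulator of self-antigens in the thymus, leaned to JF1. On chromosome 7 the zinc finger genes Zfp141, Zfp976 and Zfp975 with Gm17067 leaned to B6, and on chromosome 13 did 4 histone genes, a class with close copies.

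**Figure D5:**
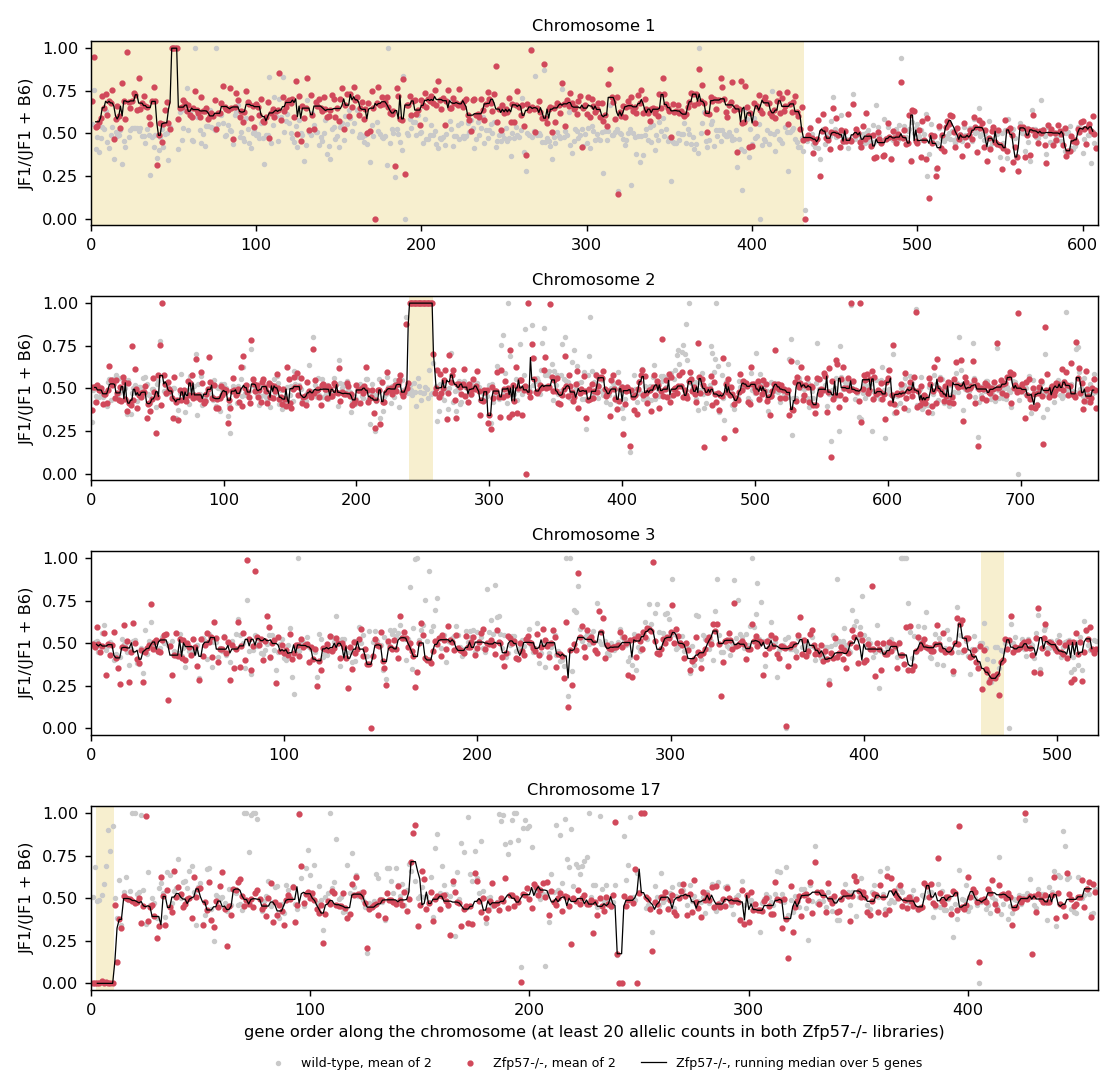
JF1 ratio (y axis) of members with at least 20 counts in both Zfp57-/- libraries, imprinted genes left out, in gene order (x axis, rank along the chromosome) on chromosomes 1, 2, 3 and 17, with wild-type means in grey, Zfp57-/- means in red and a black running median of 5 genes for Zfp57-/-. Shading marks chromosome 1 below the boundary, where the Zfp57-/- line sits near 0.65, the stretches read from 1 allele on chromosomes 2 and 17, and the run on chromosome 3.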

How the data were processed

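Total RNA was sequenced after ribosomal depletion as stranded paired-end libraries. According to the methods, the authors trimmed reads with Trimmomatic 0.36, aligned them with STAR 2.5.4a to a GRCm38 genome with JF1 variants masked, kept unique alignments, split them by allele with SNPsplit and counted them per GENCODE gene with featureCounts (Subread 1.6.0). The deposited values are raw counts per gene, as bulk counts and as JF1 and B6 counts per library. All 8 allele columns of the 4 libraries were used, and labels in the table headers gave the genotype and the replicate.

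Differences were tested in 2-sided quasi-likelihood tests of edgeR 4.0.16 (R 4.3.3), with 1 term per library, an allele term per genotype and the same scale for both alleles of a library (TMM of the bulk counts). Zfp57-/- p-values were adjusted by Benjamini-Hochberg over all 11005 members. Wild-type values and the change between genotypes (Zfp57-/- minus wild-type) were adjusted over the 10091 members with 10 allelic counts in all 4 libraries. Both genotypes shared the estimate of spread. Values with ± are log2 differences with their SE. The methods call the 2 libraries of a genotype biological duplicates. The p-values rest on the spread between libraries of both genotypes, drawn strongly towards that of other genes (prior degrees of freedom 87.8). They rest little on the spread between a gene's own 2 Zfp57-/- libraries.

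A ratio is JF1/(JF1 + B6) of 1 library. Stretches read from 1 allele were runs of at least 5 genes with 20 counts per library whose running median of 5 was at 0.9 or more or 0.1 or less. Where an allele had 0 counts, folds were bounded with 3 counts over both libraries. Named genes were those with the smallest adjusted p: per direction, 8 with all 4 ratios past 0.33 or 0.67 and 50 counts per library, 5 unexpressed in wild-type cells, 5 changed between genotypes, 3 predicted genes and 5 of the chromosome 1 region. To these were added the 4 first of each gene list and all imprinted genes called. Other genes, those of the runs among them, were named after their values were seen. The members, regions and gene lists were chosen with earlier results of these data known. Counts were simulated with the same spread for every gene (0.004), and changed genes had at least 50 counts in both Zfp57-/- libraries. There the Zfp57-/- test recovered 44.8% of 1.5-fold, 89.6% of 2-fold and 100% of 4-fold differences, with 7 false calls among 11005 genes. The test of change recovered 10.4%, 56.7% and 97.0%. These shares do not cover shallower genes, and the false calls hold only for a spread as small as the simulated one.

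Alternatives were DESeq2 1.42.0, other scalings, other count minimums, a proportion test on pooled reads, fits without the library term or with a replicate term, and the removal of each library.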

Additional observations from a re-analysis of the deposited data

Results flagged for a closer look

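Results are listed here because the JF1 to B6 difference was not the same in the Zfp57-/- and the wild-type libraries by the test of that difference. This held for 1219 of 9565 members. Among the genes named for it, the mean JF1 ratio was higher in Zfp57-/- cells by 0.346 for Tpbg, 0.318 for Hmga1b, 0.255 for Spock2, 0.557 for Fem1c and 0.176 for Glipr1. It was lower for Rps3 (-0.524), Serpinh1 (-0.566), Rps3a1 (-0.755), Tubb5 (-0.534), Rps15a (-0.483) and Cox7a2l (-0.335). Rps3, Serpinh1 and Rps15a lie in wild-type stretches read from JF1 alone, whereas Tpbg and Cox7a2l had wild-type ratios between 0.458 and 0.528. Hmga1b, Rps3, Rps3a1, Rps15a and Tubb5 have close copies. The part of the copies, of the wild-type stretches and of the difference in cell state was not tested.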

How the results depend on the processing

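Of 151 named genes, no difference changed its direction under any alternative. Most of these genes were picked for a small adjusted p or after their values were seen, which favours such stability. Over all alternatives 1927 of their values stayed on the same side of the threshold, 181 no longer passed it, 56 of these in the fit without a library term and 42 in DESeq2, and 3 newly passed. For the 15 genes with a named change, 1 value no longer passed (Glipr1 without the library term). Ezr lost its call in 11 alternatives, Kcnq1ot1 in 10, Eno1, H2-M3 and Mir376c in 9, Rps3 in 8, and Mir453 and Uqcrc1 in 7, so that 2 of the 7 calls from Meg3 to Mirg were weak.

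The 2170 calls became 581 with DESeq2 (580 of them shared, 1408 at an unadjusted p under 0.05), 3425 with a proportion test on pooled reads, 495 without a replicate block, that is without the library term that pairs the alleles, and 1409 at an adjusted p of 0.01. The 758 past a bound became 329 with DESeq2 and 429 without the library term. The 17 imprinted genes became 4 without the library term, the 1219 changes 678 with DESeq2, 590 without the library term and 703 in balanced wild-type neighbourhoods (chosen after seeing the data). The 865 shared calls became 271, 233 and 1363 with DESeq2, without the library term and with proportions, and the 365 of chromosome 1 became 228 and 192 with the first and second of these. The median ratio of 0.485 became 0.486 with 20 counts or pooled reads, and 0.652 on chromosome 1 became 0.654 with 20 counts.

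Leaving out 1 library gave 1476 to 1899 calls, 662 to 923 past a bound, 12 to 21 imprinted genes, 839 to 1360 changes, 409 to 770 shared calls (514 and 409 without wild-type replicate 1 and 2) and 315 to 348 on chromosome 1, with medians of 0.485 and of 0.651 to 0.653. A genotype then has 1 library, assumed to vary like the others. Replicate numbers did not pair the libraries (correlation 0.0144 of same-numbered deviations), and a replicate block by number gave 2200, 740, 17, 1231, 886 and 360. DESeq2 had a median dispersion of 0.0524, edgeR a common one of 0.00347. Both single-allele stretches were found in all settings run. Depth limits genes with under 20 counts, where 10 counts give a 95% interval of 0.237 to 0.763.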

Other observations

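Endoderm and neural genes were set beside the pluripotency genes as lists of the other cell types that the cultures could hold. Among the 16 endoderm genes reaching the depth minimum, 6 were called (37.5%, beside 20.9% of all members outside the classes treated apart), 3 towards each allele. Lama1, a laminin chain of basement membranes, was the deepest of them, with 16801 and 25330 JF1 counts against 12733 and 18446 B6 counts in Zfp57-/- cells (0.43 ± 0.04, adjusted p = 7.72e-18). Its ratios of 0.569 and 0.579 lay beside 0.568 and 0.577 in wild-type cells. Of the 7 neural genes 3 were called, 1 towards JF1 and 2 towards B6, too few to set against the 20.9%.

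Across the 6667 genes with 50 counts in all 4 libraries, the log2 JF1 to B6 differences of the Zfp57-/- libraries had a Pearson correlation of 0.859 with each other, those of the wild-type libraries 0.970, and those of a Zfp57-/- and a wild-type library 0.318 to 0.350. These are correlations across genes, which are not independent replicates, and the wild-type values include the stretches read wholly or mostly from JF1.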
